A study of Mus musculus with 4 samples.

Results

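The cells described here are colonic epithelial cells of the mouse that carried few transcripts of surface colonocytes, little mucus transcript and almost no transcript of dividing cells. A cell was kept when at least 200 genes were detected and mitochondrial counts were at most 25% of its total. A kept cell was then included when Epcam, Krt8, Krt18, Krt19, Cldn7 and Lgals4 together made at least 0.3% of its counts, when at most 3 of 8 surface genes (Car1, Krt20, Guca2a, Slc26a3, Cyp2c55, Lypd8, Aqp8, Ceacam20) were detected, and when Muc2, Agr2, Spink4 and Fcgbp together stayed under 0.2%. Fewer than 2 of 7 cycling genes (Mki67, Top2a, Cdk1, Ccnb1, Ube2c, Birc5, Cenpf) could be detected, and Ptprc and Col1a1 had to be at 0. This rule held for 4113 of 38852 kept cells, and they are called lower crypt gate cells below. The remaining epithelial cells were divided by the same thresholds into a surface colonocyte gate (3635 cells), a cycling gate (1085 cells) and a mucus gate (2506 cells). The members were chosen by these measured transcript values, so differences in level between gates are given as descriptions, without a test.

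The study compared the colon of control mice with the colon of mice given CCl4 (carbon tetrachloride, a liver toxicant used to produce cirrhosis in mice) for 6 weeks. Droplet single-cell RNA sequencing was done on 2 control libraries and 2 CCl4 libraries from enzymatically dissociated tissue. The animals were specific-pathogen-free and aged 6 weeks when CCl4 was started. The labels name no strain or sex, no vehicle or age for the controls, and no number of animals behind a library, so p-values measure only the spread between libraries, which may be technical.

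The colonic crypt is renewed from stem cells at its base, which are maintained by Wnt signalling. Their progeny divide in the lower crypt, leave the cell cycle, and acquire the absorptive or secretory programme as they move to the surface. Undifferentiated lower crypt cells are known for chloride secretion. In that process the cotransporter Slc12a2 (NKCC1) loads chloride across the basolateral membrane, the potassium channel Kcnq1 with its subunit Kcne3 sustains the driving force, and Cftr releases chloride into the lumen. Surface colonocytes are known for sodium and water absorption.

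The lower crypt gate held 604 cells in control library 1, 583 in control library 2, 1549 in CCl4 library 1 and 1377 in CCl4 library 2. Their summed counts were 2511837, 2452481, 7664796 and 6073666, so the CCl4 values rest on more counts than the control values. The median cell had 3104 to 3560 counts across libraries, and the deposited barcodes had a lowest total of 1001 counts. The median over all lower crypt gate cells was 3316 counts, against 9289 in the surface gate, 7325 in the cycling gate and 9648 in the mucus gate. A shallow cell shows fewer of the 8 surface genes and fewer of the 7 cycling genes, and the lower crypt gate therefore collects shallow cells. The non-coding genes Gm26917 and Gm42418 made a median of 5.10% and 5.15% of counts in the control cells of the gate and 2.51% and 2.27% in the CCl4 cells, against 0.527% over the surface gate. The part of depth and of these 2 genes in a difference between gates was not tested. Of 3722 distinct barcode names in the gate, 376 occurred in more than 1 library, and 0 kept barcodes shared an identical count profile.

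Of the 4 genes proposed as markers of these cells, Kcne3 and Cftr were higher in the lower crypt gate than in the surface gate in all 4 libraries, Wfdc2 was higher by a small margin, and Dmbt1 did not separate these gates. Levels in this section are CPM, a gene's share of the summed counts of a gate on the usual scale. Kcne3 was at 128 and 129 CPM in the control libraries and at 218 and 188 CPM in the CCl4 libraries. Its mean of 166 CPM over the 4 libraries was 2.96 times the 56.0 CPM of the surface gate, while the cycling gate had 195 CPM. Cftr was at 150 and 154 CPM in control and 183 and 186 CPM in CCl4. Its mean of 168 CPM was 2.20 times the 76.5 CPM of the surface gate and close to the 152 CPM of the cycling gate. Dmbt1, a secreted scavenger protein that binds bacteria, ranged from 1336 to 1451 CPM in the lower crypt gate, and its mean of 1383 CPM lay below 1458 CPM in the surface gate and 1864 CPM in the cycling gate. Wfdc2, a secreted protease inhibitor, averaged 561 CPM, with 465 CPM in the surface gate and 653 CPM in the cycling gate, and was higher than in the surface gate in 4 of 4 libraries, by 1.21 times on average. In stromal cells, which should lack these genes, Kcne3 was at 5.60 CPM, Cftr at 6.30 CPM, Dmbt1 at 28.0 CPM and Wfdc2 at 13.2 CPM.

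**Figure D1:**
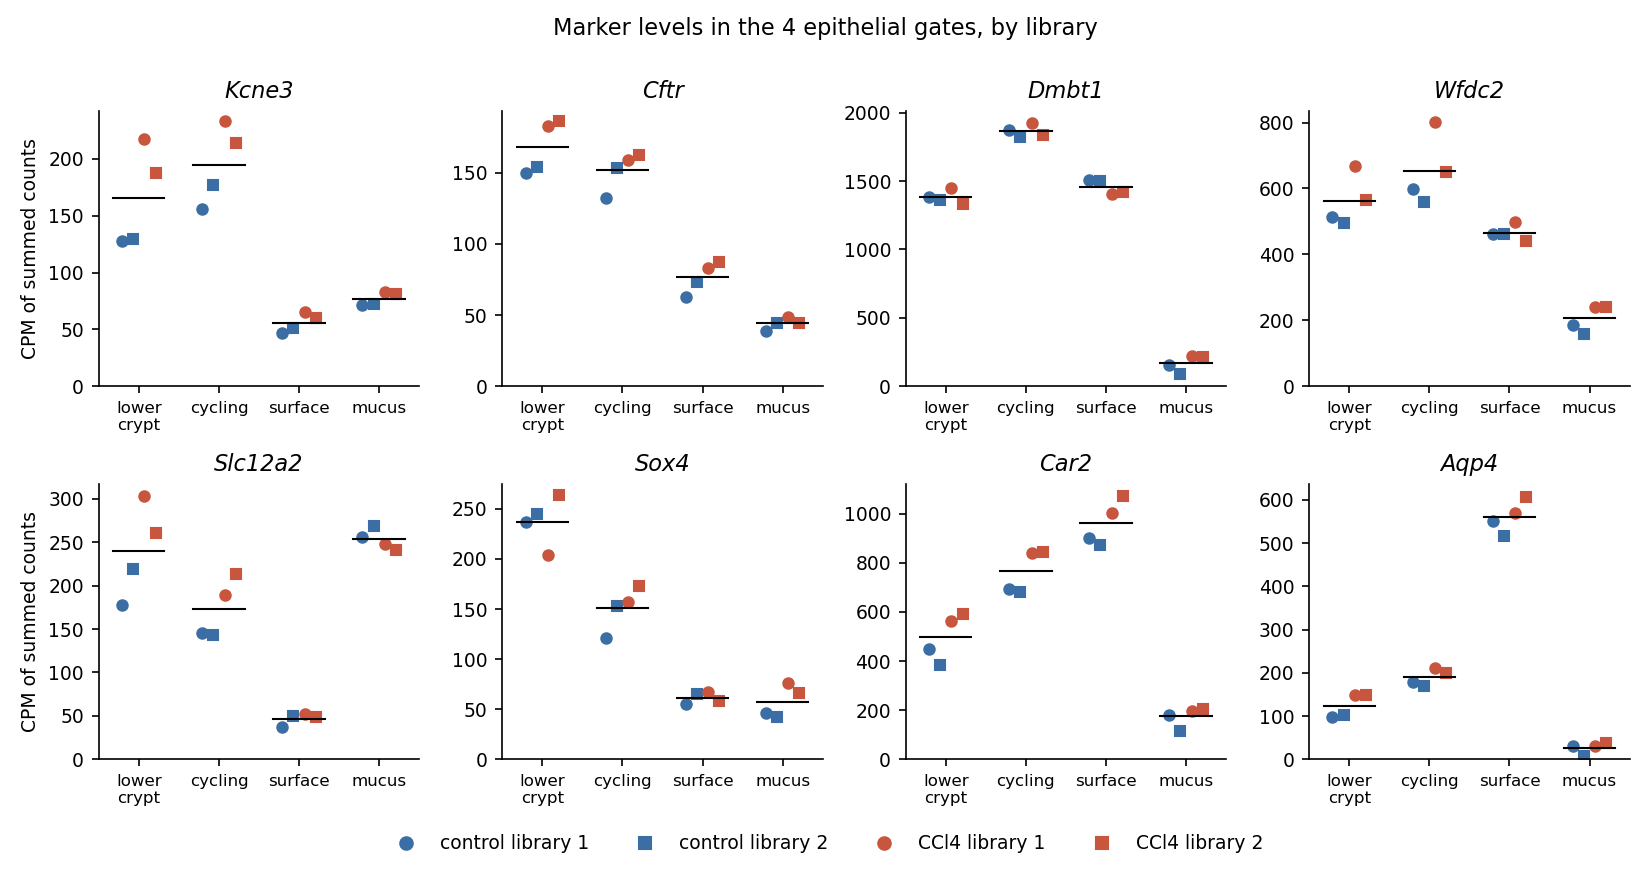
Levels of 8 genes (vertical axes, CPM of summed counts) in the lower crypt, surface, cycling and mucus gates (horizontal axes), with 1 point per library and a black bar at the mean of the 4 libraries. Kcne3, Cftr, Slc12a2 and Sox4 sit above the surface gate in the lower crypt gate, Car2 and Aqp4 below it, and Dmbt1 overlaps it.

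The other genes named above for chloride secretion, Slc12a2 and Kcnq1, were also higher than in the surface gate. Slc12a2 was at 178, 219, 304 and 261 CPM in control 1, control 2, CCl4 1 and CCl4 2, and its mean of 240 CPM was 5.16 times the 46.5 CPM of the surface gate. Kcnq1 averaged 78.3 CPM against 24.0 CPM in the surface gate. Aqp1, a water channel outside that set, averaged 46.2 CPM against 5.32 CPM. The absorptive genes had the opposite order. Car2, a cytosolic carbonic anhydrase, averaged 497 CPM in the lower crypt gate and 962 CPM in the surface gate, and the water channel Aqp4 averaged 124 and 561 CPM. The membrane carbonic anhydrase Car4 was at 8.72 CPM against 95.6 CPM, and Slc9a3, the apical sodium-hydrogen exchanger, at 2.57 CPM against 42.5 CPM. Surface genes that the rule did not name were also low: Plac8 averaged 217 CPM against 1385 CPM, Emp1 48.9 against 533 CPM, the fatty acid binding protein Fabp2 653 against 2433 CPM, and the membrane mucin Muc3 304 against 751 CPM. Slc12a2 was not particular to these cells, since the mucus gate averaged 253 CPM.

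Genes of crypt identity and fate showed the same split. Sox4, a transcription factor of immature epithelium, averaged 237 CPM in the lower crypt gate, 61.3 CPM in the surface gate and 151 CPM in the cycling gate. Sox9, a Wnt-responsive factor of the crypt base, averaged 138 CPM against 60.0 CPM at the surface and 149 CPM in the cycling gate. The Wnt target Cd44 was at 98.3 against 25.6 CPM and Myc at 49.7 against 13.3 CPM. The stem cell genes were detected at low level: Lgr5, the R-spondin receptor that marks crypt base stem cells, averaged 9.15 CPM against 1.16 CPM, Ascl2 4.41 against 0.094 CPM, and Smoc2 18.8 against 1.83 CPM. Klf4, a factor of differentiated surface cells, was lower at 553 CPM against 1666 CPM. Atoh1, which sets the secretory fate, was at 1.78 CPM in the lower crypt gate and 50.5 CPM in the mucus gate. Cdx1, a homeobox factor of intestinal identity, averaged 205 CPM against 178 CPM in the surface gate and was higher in 4 of 4 libraries.

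Among genes at 100 CPM or more, the 10 with the largest ratios over the surface gate included markers of enteroendocrine cells, the hormone-producing cells of the epithelium, which the rule did not remove. In alphabetical order the 10 were Chga, Chgb, Clca3b, Cmss1, Gm26917, Il31ra, Lsr, Peak1, Reg4 and Zfp791. Over the cycling gate they were Apoe, Chga, Chgb, Ddc, Gcg, Gm26870, Insl5, Pyy, Reg4 and Selenop. Cells with 2 or more of 12 enteroendocrine markers numbered 25 of 604, 22 of 583, 44 of 1549 and 50 of 1377, which is 4.14%, 3.77%, 2.84% and 3.63%. These 141 cells carried 99.7% of all Chgb counts of the gate, 99.5% of Chga, 99.4% of the glucagon gene Gcg, 99.3% of peptide YY and 99.1% of Insl5. These genes are among the 12 markers that picked the cells, so high shares are in part set by that choice. Over the 12 markers the lowest share was 78.2%, for Pax6. Chgb, a granin of secretory granules, averaged 1562 CPM in the whole gate and 3.94 CPM once cells with 2 or more markers of another type were removed. With each cell thinned to 1000 counts the enteroendocrine share was 3.61% in control and 2.48% in CCl4, against 0.174% and 0.124% in stromal cells.

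Tuft cells, the chemosensory cells of the epithelium, could not be separated as clearly. Cells with 2 or more tuft markers made 6.79%, 7.38%, 9.43% and 7.12% of the gate, but these 328 cells had a median of 7604 counts, and at 1000 counts per cell the share was 1.52% in control and 1.74% in CCl4. The mucus gate had 1.19% and 1.45% and stromal cells 0.641% and 0.984% at that depth. Only 38 cells of the lower crypt gate carried 4 or more tuft markers.

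The cells of the gate also differed among themselves along the number of surface genes detected. With 0, 1, 2 and 3 surface genes there were 778, 1266, 1203 and 866 cells. Several crypt base genes were highest in cells with 0 surface genes, and several absorptive genes were lowest there. Ascl2 is a stem cell transcription factor. With 0 surface genes it was at 10.4, 8.27, 8.28 and 17.9 CPM in control 1, control 2, CCl4 1 and CCl4 2. In cells with 3 it was at 0, 0, 4.60 and 0.491 CPM. The whole gate held 81 Ascl2 counts in 48 cells, so each of these levels rests on few counts. The Wnt target Axin2 averaged 40.2 CPM with 0 and 10.5 CPM with 3 surface genes, and Smoc2 30.7 and 4.86 CPM. Axin2 was higher with 0 in 4 of 4 libraries, but unevenly. Control 2 had 13.8 CPM with 0 and 12.2 CPM with 3, while control 1 had 73.1 CPM with 0. Lgr5 (12.8, 14.6, 8.14 and 5.58 CPM over 0, 1, 2 and 3 surface genes) and Cdca7 (42.8, 45.6, 52.9 and 22.5 CPM) did not peak at 0. Slc12a2 was at 326, 304, 244 and 154 CPM over 0, 1, 2 and 3 surface genes, and was higher with 0 than with 3 in 4 of 4 libraries.

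Several absorptive genes ran the other way, though the low sodium channel gene Scnn1b did not (3.79 CPM with 0 and 0.123 CPM with 3 surface genes). Fabp2 averaged 274, 431, 698 and 926 CPM over 0, 1, 2 and 3 surface genes, and Aqp4 57.0, 64.2, 121 and 198 CPM. Hao2, a peroxisomal hydroxyacid oxidase, went from 84.6 to 356 CPM, and each of these 3 genes was lower with 0 than with 3 surface genes in 4 of 4 libraries. Dmbt1 went along the same axis, from 821 to 1666 CPM, while Kcne3 (137, 150, 197 and 151 CPM) and Cftr (187, 163, 177 and 154 CPM) showed no steady order. Depth moved with this axis: the median cell had 1936, 2742, 4190 and 5223 counts, and Gm26917 with Gm42418 made 7.73%, 4.58%, 2.12% and 1.37% of counts. Transcripts of other cell types moved with it too: the fibroblast genes Dcn (154 CPM with 0 and 49.3 CPM with 3 surface genes) and Col3a1 (81.6 and 29.6 CPM) and the immunoglobulin genes Igha (1704 and 387 CPM) and Igkc (1251 and 230 CPM) were higher with 0 in 4 of 4 libraries. The part of any of these in the gradients was not tested.

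**Figure D2:**
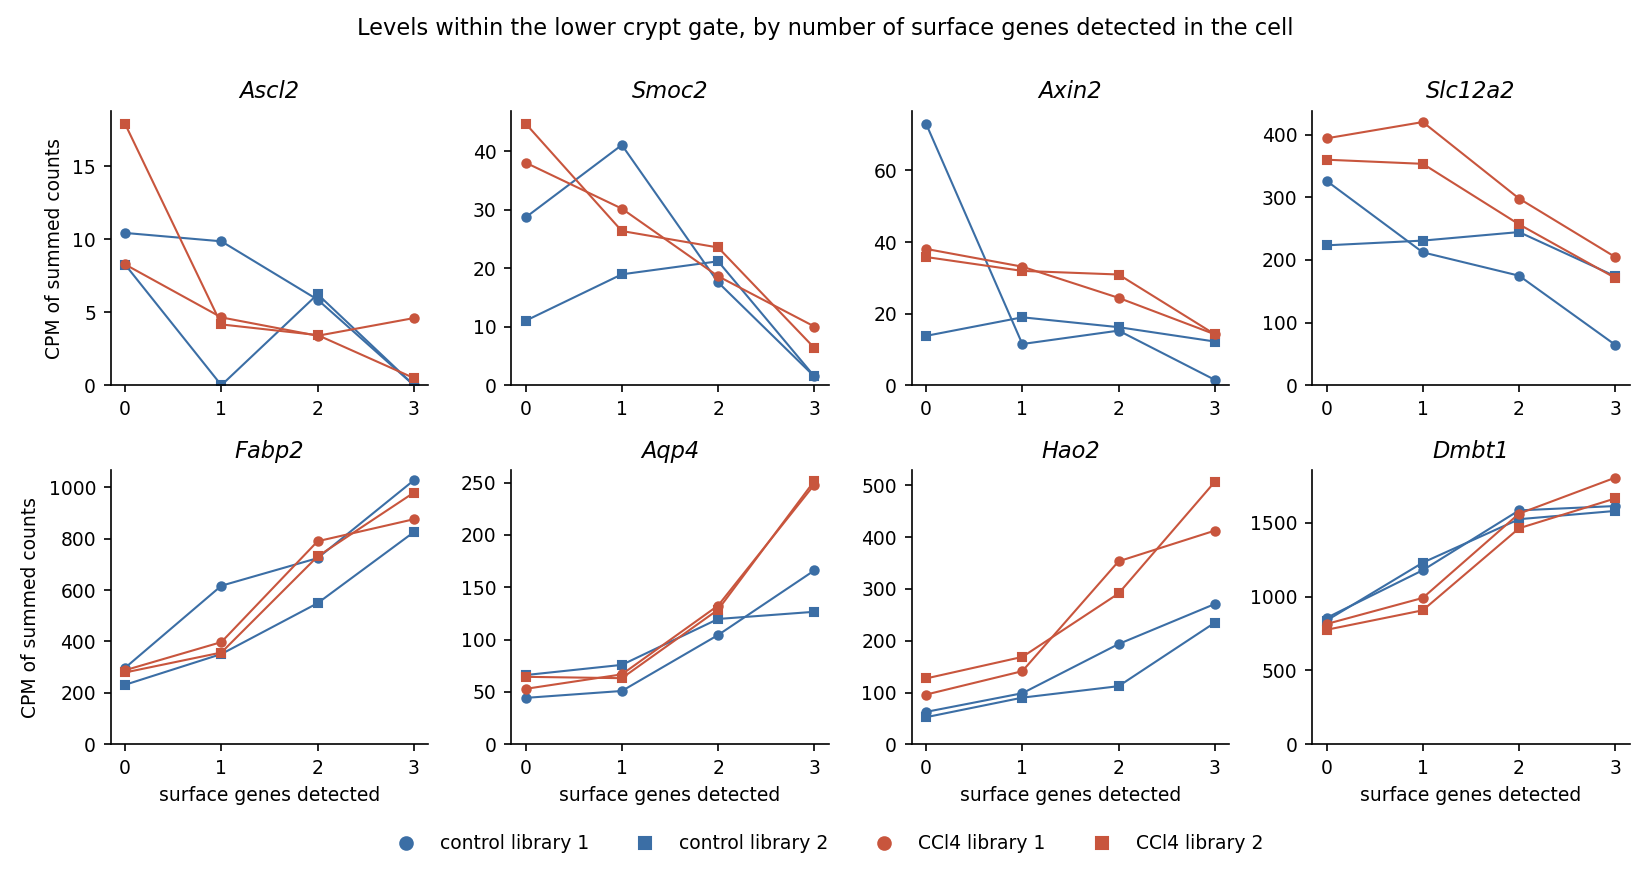
Levels of 8 genes (vertical axes, CPM of summed counts) in lower crypt gate cells with 0, 1, 2 or 3 of the 8 surface genes detected (horizontal axes), with 1 line per library. Ascl2, Smoc2, Axin2 and Slc12a2 are lower with 3 surface genes than with 0 in each library, and Fabp2, Aqp4, Hao2 and Dmbt1 are higher.

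The thresholds cut through continuous ranges. Inside the surface gene limit were 866 cells with 3 surface genes (median 5223 counts), and 772 cells with 4 lay just outside (median 6402 counts). On the cycling limit, 733 cells had 1 cycling gene and 320 cells outside had 2. At the epithelial limit, 463 cells had 0.3 to 0.4% of the 6 epithelial genes and 691 cells that met the other criteria had 0.2 to 0.3%. When every cell was thinned to 1000 counts before the rule was applied, 1530 of 3635 surface gate cells (42.1%) and 636 of 1085 cycling gate cells (58.6%) fell into the lower crypt gate. Of the 4113 lower crypt gate cells, 3640 stayed and 303 moved to the mucus gate.

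The lower crypt gate held a larger share of all kept cells in the CCl4 libraries. The shares were 7.01% (exact binomial 95% interval 6.48 to 7.57%) and 6.65% (6.13 to 7.19%) in control, and 14.0% (13.4 to 14.7%) and 13.2% (12.6 to 13.9%) in CCl4. The intervals cover counting error only. The groups did not overlap: the mean was 6.83% ± 0.255 (SD, n = 2) in control and 13.6% ± 0.569 (SD, n = 2) in CCl4. The exact two-sided permutation test gave p = 0.333, which is the smallest value that 2 against 2 libraries allow. Gated epithelial cells as a whole went from 20.7% to 36.0% of kept cells, so a share within the epithelium is a separate question.

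Within gated epithelium the lower crypt gate made 33.1% and 32.7% in control and 38.6% and 37.0% in CCl4, a difference of 4.91 percentage points with an exact permutation p of 0.333. The size and sign of this difference depended on how cells were selected. With all cells thinned to 1000 counts the shares were 55.4% and 56.1% in control and 54.8% and 55.5% in CCl4, a difference of -0.667 points (exact permutation p = 0.667), and the groups overlapped. With 500 or more genes and a mitochondrial share of up to 10% the difference was 0.961 points. Other limits, added after the data were seen, gave larger ones: in cells with at least 3000 counts the share was 23.1% in control and 29.0% in CCl4, a difference of 5.89 points, and in cells with under 5% Gm26917 and Gm42418 counts it was 21.4% and 30.7%, a difference of 9.25 points. The share of all kept cells kept its direction at equal depth, at 12.6% in control and 21.9% in CCl4.

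**Figure D3:**
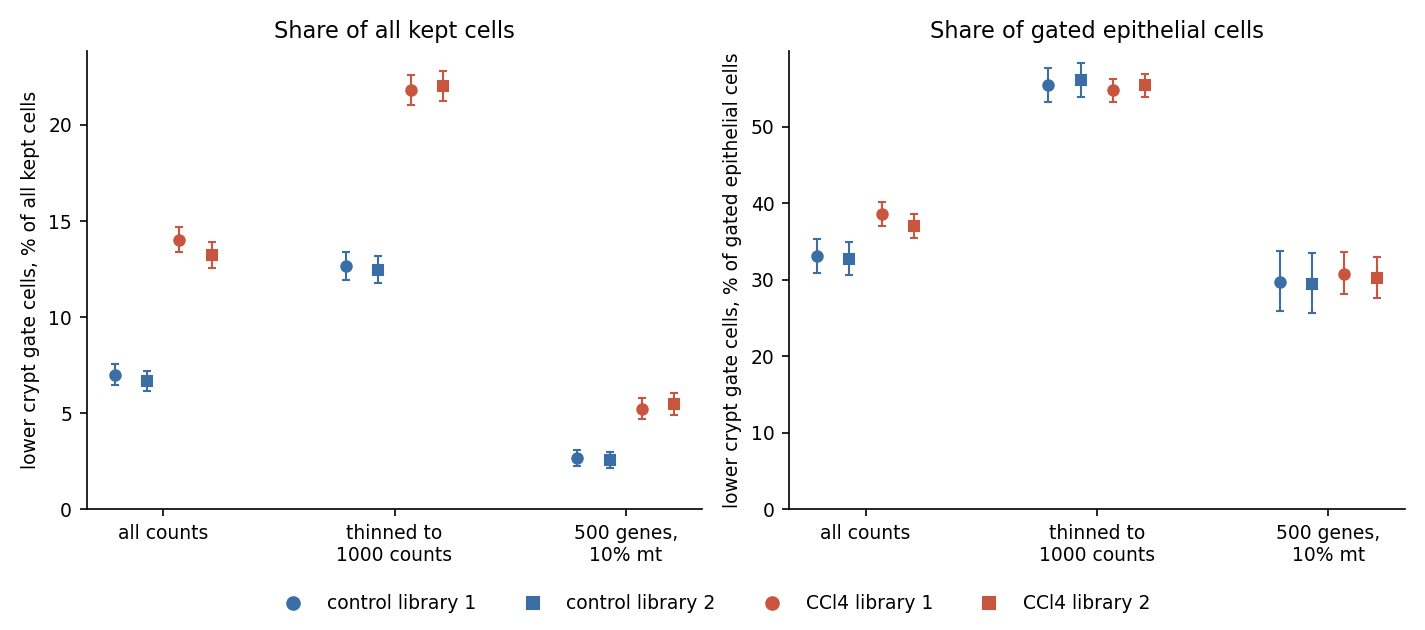
Share of lower crypt gate cells (vertical axes, percent) among all kept cells and among gated epithelial cells in the 4 libraries, with all counts, with each cell thinned to 1000 counts, and with stricter cell filters; bars are exact binomial 95% intervals. The CCl4 libraries stand above the controls among all kept cells in each setting, and overlap them among epithelial cells at 1000 counts.

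Cells with 2 or more of 6 stem markers made 4.64% (28 of 604) and 4.29% (25 of 583) of the gate in control and 6.97% (108 of 1549) and 6.54% (90 of 1377) in CCl4. The difference was 2.29 percentage points with an exact permutation p of 0.333. These 251 cells were deep, with a median of 9073 counts. At 1000 counts per cell the shares were 0.251% in control and 0.452% in CCl4. They rested on 2 and 1 control cells and on 5 and 8 CCl4 cells. Stromal cells had 0.242% and 0.381%, so at that depth the stem marker share was not told apart from that of stromal cells. The surface gate had 0.0670% and 0.140%, the mucus gate 0.171% and 0.598%, and the cycling gate 0.820% and 0.951%. Cells with 0 surface genes were 26.3%, 23.7%, 15.5% and 17.5% of the gate. When the gate itself was redrawn at 1000 counts, they were 34.9% in control and 33.7% in CCl4. That gate is another set of cells, with 1090 and 1094 in control and 2410 and 2294 in CCl4.

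Transcripts of other cell types moved with treatment in the gate. The summed level of the plasma and B cell marker list was 2444, 1765, 1413 and 476 CPM in control 1, control 2, CCl4 1 and CCl4 2, and that of the erythroid list 27.5, 29.8, 325 and 598 CPM. At 1000 counts per cell, 23.2% and 28.0% of the control cells carried 2 or more plasma and B cell markers, against 155 of 1549 and 130 of 1377 CCl4 cells (9.44% for the latter). Erythroid markers in pairs were found in 0 of 604 cells of control 1, which allows a share of up to 0.609% of cells, and in 0.904% and 0.872% of the CCl4 cells. The fibroblast list (432, 378, 235 and 368 CPM) and the enteroendocrine list (3863, 3201, 1640 and 2199 CPM) had lower values in both CCl4 libraries than in both controls. T cell markers were at 0.169% and 0.170% of cells. The part of these transcripts in the changes below was not tested beyond the values given.

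CCl4 against control in the lower crypt gate was tested with edgeR's quasi-likelihood test on the counts summed per library, with Benjamini-Hochberg adjustment over 14061 genes. Of these, 13 were called at an adjusted p under 0.05 (0.0925%): 11 were higher in CCl4 (0.0782%) and 2 lower (0.0142%). By name they were B3gnt7, Cyp2c68, Sycn, Hao2, Hoxb13, Gm47283, Muc2, Hba-a1, Hba-a2, Hbb-bs and Hbb-bt, with higher values, and Psmb8 and Iglc3 with lower ones. Muc2 was used by the rule, so its call is not read as a result, though it stays among the 13 in the counts that follow. An unadjusted p under 0.05 was found for 1345 genes (9.57%). Leaving out a library raised the count of calls, to 76 without control 1, 125 without control 2, 53 without CCl4 1 and 80 without CCl4 2, and 11 or more of the 13 genes were among them each time. DESeq2 called 62 genes, 31 of them higher in CCl4, and 11 of the 13 were among them.

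The largest rise among epithelial genes was in B3gnt7, an N-acetylglucosaminyltransferase that extends glycan chains (GRCm38 chr1:86302832-86307305). From here on levels are CPM scaled by edgeR's TMM factors. B3gnt7 was at 2.83 and 1.22 CPM in control and 33.1 and 25.5 CPM in CCl4. Both CCl4 libraries lay far above both controls, and the gene was detected in 5 of 604 and 3 of 583 control cells (0.828% and 0.515%) against 6.78% and 6.10% of CCl4 cells. The log2 change was 3.84 ± 0.38 (SE; adjusted p = 0.00454). In cells with 0 or 1 surface genes it was 1.89 with an adjusted p of 0.763. B3gnt7 was also called higher in the surface gate (2.89, adjusted p = 0.00489), the mucus gate (0.89, adjusted p = 0.00648) and the cycling gate (adjusted p = 0.00777).

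Sycn, syncollin, a secretory granule protein best known from the exocrine pancreas, also rose (chr7:28540885-28542209). It was at 596 and 414 CPM in control and 1254 and 1176 CPM in CCl4, a log2 change of 1.27 ± 0.17 (adjusted p = 0.0325). In control 35.8% and 26.4% of cells had a Sycn count, and in CCl4 51.5% and 51.6%. It was called in the other gates too, with log2 changes of 0.82 at the surface (adjusted p = 0.000871), 0.70 in the cycling gate (0.0102) and 0.44 in the mucus gate (0.0392). All tested genes were called at a rate of 0.884% in the surface gate, 0.358% in the cycling gate and 0.584% in the mucus gate. In cells with 0 or 1 surface genes the change was 1.16 with an adjusted p of 0.078.

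Hao2 and Hoxb13 rose to similar extents. Hao2 (chr3:98874521-98893239) was at 174 and 130 CPM in control and 317 and 311 CPM in CCl4, a log2 change of 1.05 ± 0.15 (adjusted p = 0.0454). Hoxb13, a homeobox factor of the posterior body and distal colon (chr11:96194316-96197447), was at 45.2 and 44.0 CPM in control and 102 and 84.5 CPM in CCl4, a log2 change of 1.06 ± 0.15 (adjusted p = 0.0454). For both genes the 2 groups of libraries were apart, with CCl4 higher, as for 21.5% of all tested genes. Neither held in every setting: in cells with 0 or 1 surface genes Hao2 had a log2 ratio of 0.78 (adjusted p = 0.461) and Hoxb13 of 0.62 (adjusted p = 0.821), and without CCl4 library 1 Hoxb13 had 0.93 (adjusted p = 0.057). Hao2 was also higher in cells with more surface genes, and cells with 0 surface genes were a smaller share of the gate in CCl4; the part of that shift was not tested. Hoxb13 had log2 ratios of 0.30, 0.35 and 0.48 in the surface, cycling and mucus gates, with no call there. It was not among the calls of the interaction tests against the surface and cycling gates given below. Hao2 was called in the surface gate (0.55, adjusted p = 0.0111).

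Cyp2c68, a cytochrome of drug and fatty acid oxidation (chr19:39688834-39741054), was at 9.69 and 10.2 CPM in control and 31.3 and 30.0 CPM in CCl4, a log2 change of 1.62 ± 0.23 (adjusted p = 0.0454). It belongs to a family of similar sequences, so its counts are uncertain to the extent that reads could be split. It was also called in the surface gate (0.98, adjusted p = 0.000377). It did not pass in cells with 0 or 1 surface genes (0.37, adjusted p = 0.972) or under the stricter cell filters (adjusted p = 0.149).

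Psmb8, the immunoproteasome subunit that replaces a catalytic subunit of the standard proteasome (chr17:34197721-34201454), fell. It was at 79.5 and 67.6 CPM in control and 29.4 and 29.8 CPM in CCl4. The groups did not overlap, with both CCl4 libraries lower, as for 19.6% of all tested genes. The log2 change was -1.31 ± 0.15 (adjusted p = 0.0139), and changes in the surface, cycling and mucus gates were -1.90, -1.27 and -1.29, all called. The change was -0.76 under the stricter cell filters (adjusted p = 0.292) and -0.93 in cells with 0 or 1 surface genes (adjusted p = 0.499).

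The other calls were a mucus gene of the rule, transcripts of plasma and red blood cells, and Gm47283, a gene with no assigned name. Muc2, one of the 4 mucus genes limited by the rule, was at 31.9, 35.8, 117 and 106 CPM. Since the rule used its values, its log2 ratio of 1.72 is a description with no test; the ratio was 1.38 in the surface gate, 1.57 in the cycling gate and -0.52 in the mucus gate. The immunoglobulin gene Iglc3 was at 41.2, 34.6, 7.35 and 9.78 CPM (-2.15, adjusted p = 0.0101), and 0.80 without a call on the gate at 1000 counts. Hba-a1 of haemoglobin was at 8.88, 9.37, 136 and 215 CPM (4.26, adjusted p = 0.000454), and Hba-a2, Hbb-bs and Hbb-bt changed by 3.94, 3.68 and 4.66. These 4 genes have near-identical copies. A single cell of CCl4 library 2 carried 823 of the 1340 Hba-a1 counts of that library and a single cell of CCl4 library 1 carried 265 of 998. Without the highest cell of each library the levels in plain CPM were 7.56, 6.93, 95.6 and 85.1. Gm47283, on the Y chromosome (chrY:90784738-90816464), was at 45.2, 45.6, 96.0 and 85.5 CPM (0.999). It was also called in the surface gate (1.04, adjusted p = 0.00985), the cycling gate (1.03, 0.0361) and the mucus gate (0.93, 0.0103). The labels name no sex, and its part in this change was not tested. Gm47283 kept direction and call in 10 of 15 alternatives, with log2 ratios of 0.63 to 1.08.

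**Figure D4:**
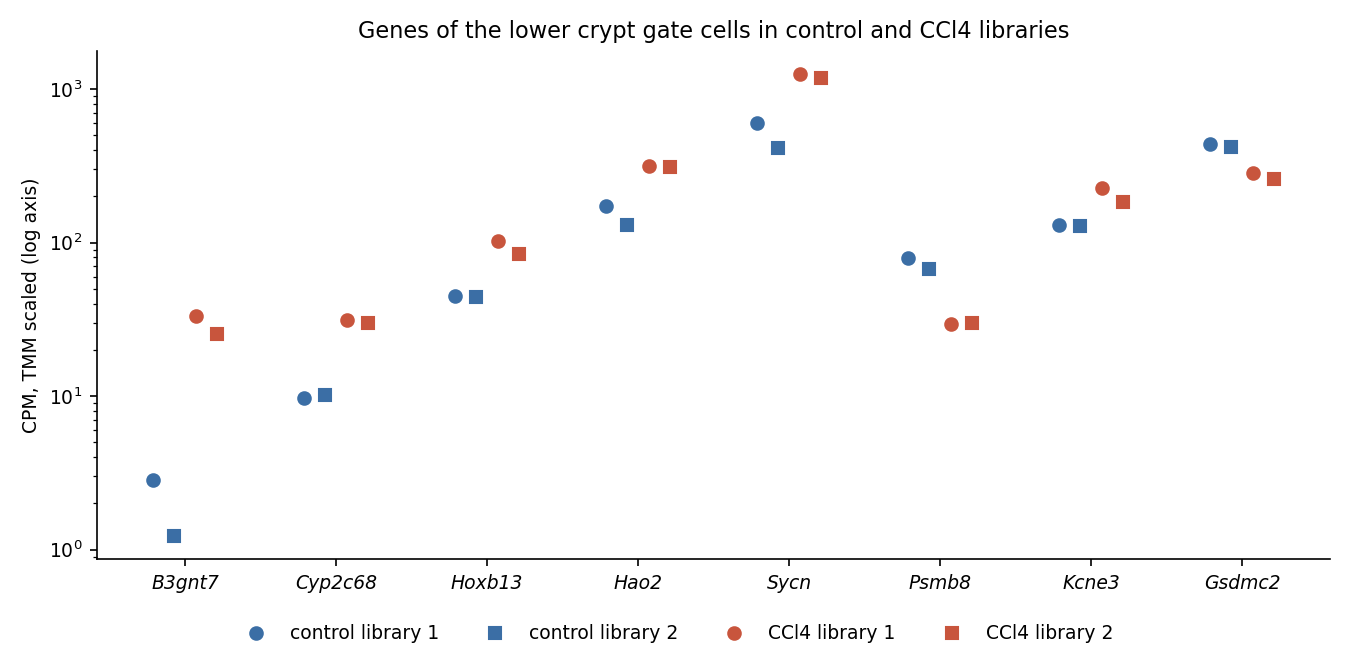
TMM-scaled CPM (vertical axis, log scale) of 8 genes (horizontal axis) in the 2 control and 2 CCl4 libraries, summed over lower crypt gate cells, 1 point per library. B3gnt7, Cyp2c68, Hoxb13, Hao2 and Sycn are higher in both CCl4 libraries than in both controls and Psmb8 is lower. Kcne3 and Gsdmc2 are also apart but did not pass the test. Of all tested genes 21.5% were higher and 19.6% lower in both CCl4 libraries.

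None of the 4 proposed markers passed the test of CCl4 against control. Kcne3 came nearest, at 130 and 129 CPM in control and 227 and 183 CPM in CCl4, a log2 change of 0.67 ± 0.14 (adjusted p = 0.167), and it passed in 4 of 15 alternatives. Cftr had a log2 ratio of 0.28 (adjusted p = 0.512), Wfdc2 of 0.30 (0.553) and Dmbt1 of 0.03 (0.965). Among 32 tested genes of ion, bicarbonate and water transport, 0 were called, beside 0.0925% of all tested genes. At that share, 0 calls in a list this short is no result about its genes, here and in the lists below. Of the 32, 13 were higher in both CCl4 libraries than in both controls (21.5% over all tested genes) and 6 were lower in both (19.6%). The median log2 change was 0.04 beside 0.00 over all genes. The following values, chosen after they were seen, did not pass the test. Slc12a2 had a log2 ratio of 0.52 (adjusted p = 0.346), Aqp4 of 0.56 (0.189), Aqp1 of 0.80 (0.234), Car2 of 0.47 (0.309) and Kcnq1 of 0.21 (0.663).

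The stem cell and Wnt target genes did not pass either. Of 23 tested, 0 were called, beside 0.0925% of all tested genes. In both CCl4 libraries 5 were higher and 2 lower, beside 21.5% and 19.6% of all tested genes, and the median was 0.12. Sox9 was at 104 and 117 CPM in control and 177 and 157 CPM in CCl4, a log2 change of 0.60 with an adjusted p of 0.189. Axin2 had a log2 ratio of 0.52 (0.504), the G1 cyclin gene Ccnd1 of 0.37 (0.423) and Cd44 of -0.35 (0.466), which was 0.028 in cells with under 5% Gm26917 and Gm42418 counts. The other 11 members at 20 CPM or more had a log2 ratio of -0.34 to 0.39. Of 30 Notch pathway and fate genes, 0 were called, 12 were higher in both CCl4 libraries and 3 lower, beside the same shares, with a median of 0.16.

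In the antibody and defence list, Sycn was the call among 28 tested genes, with 13 higher and 3 lower in both CCl4 libraries, beside 21.5% and 19.6% of all tested genes, and a median of 0.13. Pigr, the receptor that carries IgA across the epithelium, had a log2 ratio of 0.50 (adjusted p = 0.329), the pentraxin gene Mptx1 of 1.25 (0.0672) and the lectin gene Zg16 of 1.34 (0.0891). Zg16 is a goblet product, and the mucus genes Spink4 and Agr2, both limited by the rule, had a log2 ratio of 0.98 and 0.83, given without a test. B3gnt7 was the call among 23 glycan genes, with 12 higher and 4 lower in both CCl4 libraries and a median of 0.31. Cyp2c68 was the call among 52 xenobiotic genes, with 20 higher and 5 lower and a median of 0.12. In that list Sult1c2 had a log2 ratio of 0.74, Gsta4 of 0.75, Sult1a1 of 0.55 and Ugt2b34 of 0.57, and none of these passed.

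Among antigen processing genes Psmb8 was the call. Of 24 class I genes tested, 6 were higher in both CCl4 libraries and 11 lower in both, beside 21.5% and 19.6% of all tested genes, with a median of -0.13. Psmb9, a neighbouring immunoproteasome subunit, was at 34.3, 34.6, 15.8 and 22.8 CPM (-0.84, adjusted p = 0.299), Psmb10 had a log2 ratio of -0.47 (0.280) and the proteasome activator Psme2 of -0.50 (0.323). Of 38 interferon-stimulated genes 0 were called, beside 0.0925% of all tested genes. Of these 38, 6 were higher and 13 lower in both CCl4 libraries, with a median of -0.19. Of 20 gasdermin and cell death genes 0 were called, beside the same 0.0925%. Gsdmc2, a gasdermin C gene with close copies, was at 441 and 420 CPM in control and 283 and 258 CPM in CCl4 (-0.67, adjusted p = 0.104), and Gsdmc3 had a log2 ratio of -0.62 (0.142). The lists for respiration (40 genes), junctions (24), lipid metabolism (32), endoplasmic reticulum stress (30), cell cycle (30), bile acids (10), clock (17), stress response (26), ligands (43) and class II (8) held 0 calls, beside 0.0925% of all tested genes. Their medians ran from -0.27 to 0.14.

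Several genes close to the threshold are given here, chosen after their values were seen. The alcohol dehydrogenase gene Adh1 was at 597 and 616 CPM in control and 1023 and 972 CPM in CCl4 (0.72, adjusted p = 0.0760), and the aldehyde dehydrogenase gene Aldh2 at 224, 222, 377 and 380 CPM (0.76, adjusted p = 0.0672). For both genes the CCl4 libraries lay above both controls, as they did for 21.5% of all tested genes. The tissue kallikrein Klk1 had a log2 ratio of 0.85 (0.0768), the gluconeogenic enzyme gene Pck1 of 0.82 (0.104) and Thbs4 of 1.04 (0.0597). Among lower values, Il31ra was at 655, 1158, 362 and 250 CPM (-1.56, adjusted p = 0.0681) and Chgb had a log2 ratio of -1.27 (0.0681), Chga of -1.01 (0.153) and Cck of -1.36 (0.0672). Chgb had a ratio of 0.15 once cells with markers of other types were removed.

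Whether a CCl4 change differed between the lower crypt gate and the surface gate was tested as an interaction in edgeR with library and gate as terms. Of 16246 genes, 25 were called (0.154%), 11 with the more positive change in the lower crypt gate (0.0677%) and 14 with the more negative one (0.0862%). Lypd8 (0.54) and Car1 (-0.60) are among the 25, but both are surface genes whose values the rule used. Their calls are not read as results, though they stay in the counts. The smallest p was that of Gm26917, with 36130 and 40833 CPM in control and 24960 and 19160 CPM in CCl4 in the lower crypt gate, and 5320, 5180, 5068 and 4176 CPM in the surface gate (-0.62 ± 0.056, adjusted p = 1.36e-06). Cmss1 was called as well (-0.48, adjusted p = 0.0430). The share of Gm26917 thus moved with treatment in the lower crypt gate more than in the surface gate, and its part in the other calls was not tested. Leaving out a library gave 268 calls without control 1, 161 without control 2, 34 without CCl4 1 and 33 without CCl4 2. Against the cycling gate, 7 of 13214 genes were called (0.053%), and 79, 11, 13 and 18 in the same order. Levels here and in the interaction results that follow are CPM scaled by TMM over both gates.

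Tspan1, a tetraspanin of differentiated epithelium, was at 409 and 351 CPM in control and 535 and 500 CPM in CCl4 in the lower crypt gate, and at 3045, 2618, 2525 and 2333 CPM in the surface gate. The difference of the log2 changes was 0.67 ± 0.083 (adjusted p = 0.000233). St6galnac6, a sialyltransferase, was at 82.4, 86.8, 144 and 117 CPM against 363, 400, 354 and 285 CPM (0.88 ± 0.14, adjusted p = 0.00280). Plac8 was at 193, 154, 202 and 186 CPM against 2074, 1714, 1485 and 1310 CPM (0.61 ± 0.097, adjusted p = 0.00439). In these 3 genes the surface gate had the higher level throughout and its CCl4 values included the lowest. On the gate drawn at 1000 counts the differences were 0.10, 0.26 and 0.02, and none was called. Without CCl4 library 2 St6galnac6 (0.87) and Plac8 (0.57) were not called.

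Tff3, a trefoil peptide of goblet mucus, had an interaction of the opposite sign that rested on a few cells. It was at 75.5 and 66.2 CPM in control and 40.9 and 25.7 CPM in CCl4 in the lower crypt gate, and at 11.9, 15.6, 24.3 and 24.3 CPM in the surface gate (-1.93 ± 0.24, adjusted p = 0.000233). A single lower crypt gate cell carried 158 of the 218 Tff3 counts of control 1, another 102 of 196 in control 2 and another 110 of 351 in CCl4 1. Without the highest cell of each library the plain CPM of Tff3 in the lower crypt gate was 23.9 and 38.3 in control and 31.4 and 27.5 in CCl4, so the groups overlapped. The interaction was -1.17 and called on the gate at 1000 counts, and -1.90 without a call under the stricter cell filters. Sparcl1, a matrix protein of stromal and vascular cells, was at 52.3, 46.9, 43.2 and 61.6 CPM against 15.7, 13.2, 26.8 and 50.1 CPM (-1.30 ± 0.21, adjusted p = 0.00439). It was 0.11 on the gate at 1000 counts and was not called without CCl4 library 2 (-1.10).

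Against the cycling gate, genes of stroma, barrier and hormone cells were called. Acta2, smooth muscle actin, was at 122, 87.7, 62.4 and 68.0 CPM in the lower crypt gate and 72.8, 51.7, 12.4 and 7.38 CPM in the cycling gate (1.92 ± 0.28, adjusted p = 0.00498). This difference was 0.15 on the gate at 1000 counts and -2.39 under the stricter cell filters, with no call in either, and a single cell carried 105 of the 220 Acta2 counts of control 2 in the lower crypt gate. The claudin gene Cldn4 was at 239, 169, 227 and 135 CPM against 111, 40.8, 169 and 252 CPM (-1.73 ± 0.30, adjusted p = 0.0269). The cornified envelope gene Sprr1a differed by -2.23 (0.0156), the apolipoprotein gene Apoe by -1.44 (0.0269) and the amine-synthesis gene Ddc by -1.25 (0.0269). Sprr1a was at 87.4, 17.5, 47.2 and 24.7 CPM in the lower crypt gate and 46.6, 8.04, 71.9 and 99.6 CPM in the cycling gate. Its 2 controls were thus far from each other in both gates, and the groups overlapped in the lower crypt gate. Without control 2 Cldn4 (-1.34), Apoe (-1.48) and Ddc (-1.12) were not called. Without CCl4 1 Apoe (-1.09) and Ddc (-0.89) were not called, and without CCl4 2 Cldn4 (-1.09) and Sprr1a (-1.58) were not.

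**Figure D5:**
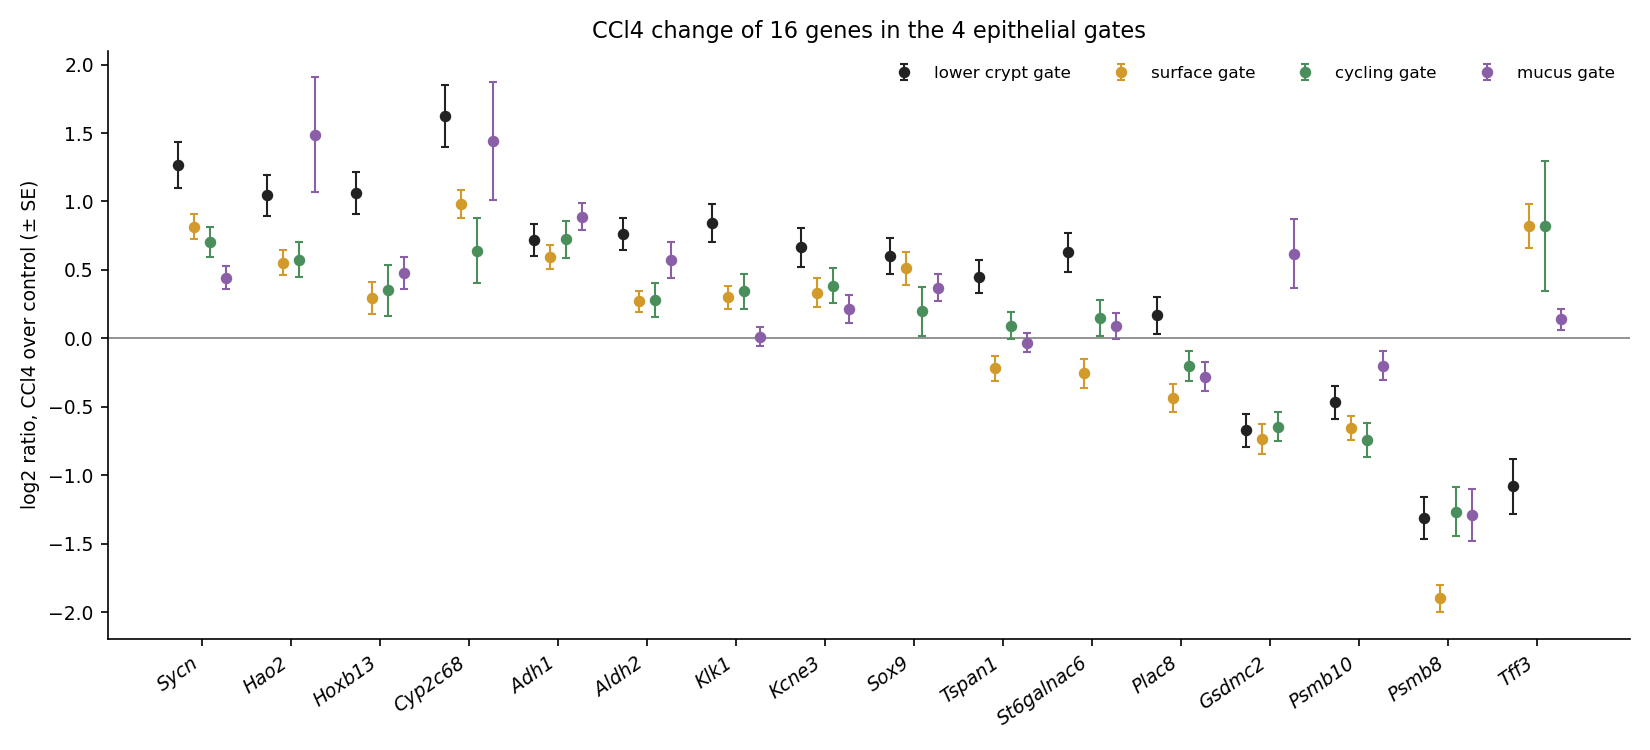
Log2 CCl4 over control (vertical axis) with standard error for 16 genes (horizontal axis) in the lower crypt, surface, cycling and mucus gates. Sycn and Hao2 lie above 0 and Psmb8 below 0 in the lower crypt, surface and cycling gates. Tff3 lies below 0 in the lower crypt gate and above 0 in the surface gate. Single lower crypt gate cells carried 158 of 218 Tff3 counts in control 1 and 102 of 196 in control 2.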

How the data were processed

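Whole-number counts of molecules per gene and cell were deposited as 1 matrix for each of 4 mouse colon libraries. They were produced with PISA v0.12b on build GRCm38, per the submitters' processing notes, and the aligner and the counting of strand are not given in the sources used here. Libraries were grouped by their titles. The gate rule, the marker lists and the gene lists were chosen with earlier results of these data known. Counts were summed per library over the cells of a gate and tested with edgeR 4.0.16 in R 4.3.3 (quasi-likelihood test, filterByExpr, TMM, Benjamini-Hochberg adjustment, threshold 0.05, two-sided). Changes in 2 gates were compared as an interaction with library and gate as terms. Shares were compared with an exact permutation test over libraries. Cells were filtered and thinned with Python 3.11.15 and scanpy 1.11.5, and no doublets were removed in the values reported, with removal of the 6% highest doublet scores as an alternative.

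Genes were named by rule: the 4 proposed markers, stem cell list members at 20 CPM or more, called genes at 50 CPM or more in either group, called members of each list, and for each interaction the 5 calls with the smallest p among genes at 50 CPM or more in either gate, leaving out genes of the rule, ribosomal, mitochondrial and immunoglobulin genes and genes named Gm or Rik. Leading genes of the gate were taken among those at 100 CPM or more. Called genes outside these limits (rule genes, immunoglobulin genes and genes named Gm) and the genes stated as such were chosen after their values were seen. Gene positions are from GENCODE M21, in which 98.1% of symbols had 1 position. Stromal cells were kept cells under the epithelial limit, with a Col1a1 count where levels are given and with 3 or more fibroblast markers where shares are given. On simulated counts the test recovered 42 of 94 genes changed 2-fold and 87 of 92 changed 4-fold, with 2 false calls among 13721, and the interaction test 19 of 100 and 73 of 97, with 6 among 15892. The simulation gave every gene the same dispersion and drew the 2 gates without a shared library effect. Its counts are therefore not error rates for these data. Alternatives covered normalization, low-count filtering, cell filters, depth, doublets, cells of other types, each library left out, and DESeq2 1.42.0. Limits of at least 3000 counts and of under 5% Gm26917 and Gm42418 counts were chosen after seeing the data.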

Additional observations from a re-analysis of the deposited data

Results flagged for a closer look

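The CCl4 change differed between the lower crypt gate and the surface gate, by the interaction test in edgeR, for the genes named here, given as the lower crypt change minus the surface change in log2. The difference was 0.67 for Tspan1, 0.88 for St6galnac6 and 0.61 for Plac8, and on the gate at 1000 counts it was 0.10, 0.26 and 0.02 with no call. It was -1.93 for Tff3, of which single cells carried 158 of 218 and 102 of 196 control counts in the lower crypt gate. Without the highest cell of each library Tff3 was at 23.9 and 38.3 CPM in control and 31.4 and 27.5 CPM in CCl4. It was -1.30 for Sparcl1 and 0.11 on the gate at 1000 counts. Against the cycling gate the difference was 1.92 for Acta2, which was -2.39 under the stricter cell filters. It was -2.23 for Sprr1a, -1.73 for Cldn4, -1.44 for Apoe and -1.25 for Ddc, and each of these 4 lost its call when at least 1 of the libraries was left out. Acta2 and Sparcl1 are stromal transcripts, and the summed fibroblast markers of the lower crypt gate were 432, 378, 235 and 368 CPM in control 1, control 2, CCl4 1 and CCl4 2; their part was not tested.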

How the results depend on the processing

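The 13 calls of CCl4 against control became 194 without the low-count filter, 89 on the gate at 1000 counts, 43 under stricter cell filters, 33 without cells carrying markers of other types, 25 under 5% Gm26917 and Gm42418, 39 at 3000 or more counts, 62 with DESeq2, and 53 to 125 with a library left out. The same-numbered libraries did not deviate together (correlation -0.0383 over 2804 genes, 2 pairs), and the replicate block gave 234 calls. Interaction calls against the surface gate numbered 159 without the filter, 57 at 1000 counts, 59 under stricter filters and 33 to 268 with a library left out; against the cycling gate 33, 13, 11 and 11 to 79. Causes were not tested. The epithelial share reversed to -0.667 points at 1000 counts. Reversed log2 values were Sparcl1 0.11 and Iglc3 0.80 at 1000 counts, Acta2 -2.39 under stricter filters, Chgb 0.15 without cells of other types, and Cd44 0.028 and Gm26917 0.00038 under 5% Gm26917 and Gm42418. In cells with 0 or 1 surface genes Wfdc2 was -0.0054 and Dmbt1 -0.28. Dmbt1 was -0.12 at 1000 counts, -0.079 without cells of other types, and -0.081 to 0.14 with a library left out. Over the 13 called genes, 160 of 191 values kept direction and call. Of these, 15 came from Muc2, a gene of the rule whose call is not read as a result. The control sums held the fewest counts.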
